A study of Mus musculus with 2 samples.

Results

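The insulin-like growth factor (IGF) genes described here are 10 of the 27998 genes in the deposited matrices, taken by name from the gene table: the ligands Igf1 and Igf2, the receptors Igf1r and Igf2r, and the binding proteins Igfbp2, Igfbp3, Igfbp4, Igfbp5, Igfbp6 and Igfbp7. All 10 had transcripts in both libraries. The study compared lungs of C57BL/6 mice (C57BL/6J in the methods text) kept in room air (21% oxygen) or in hyperoxia (80% oxygen). Exposure ran from birth until postnatal day 14, when the tissue was taken. Lung tissue was dissociated with enzymes and profiled by single-cell RNA sequencing. Each group was a pool of 8 mice sequenced as 1 library, so there are no replicates and no test between the groups was possible. Raised oxygen in newborn mice is used as a model of bronchopulmonary dysplasia, the lung disease of preterm infants in which alveoli form poorly.

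IGF1 and IGF2 are secreted growth factors that act through the receptor tyrosine kinase IGF1R, which signals by way of insulin receptor substrates, PI3-kinase and AKT. IGF2R, the mannose 6-phosphate receptor, takes up IGF2 and delivers it to lysosomes. IGF binding proteins hold the ligands in tissue and blood, and proteases that cut them set the ligands free; in the lung, mesenchymal cells are a main source of IGF1 while the alveoli are divided by septa.

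The room air library held 4234 cell barcodes and 39593888 transcripts counted by unique molecular identifier (UMI), and the hyperoxia library 13223 barcodes and 111934936 UMIs. The median cell had 7306.5 UMIs in room air and 6643 in hyperoxia. After filters, 3680 and 10472 cells were kept. The libraries shared 17 barcodes. Cells were clustered anew, and clusters were named from marker genes, so every name below carries "-like". Of the named groups, 17 cell types had at least 50 cells in each library and are compared here, and 7 were too small. An unnamed stromal cluster led by Aspn, Actc1, Tagln and Eln, with 71 and 209 cells, is given separately. The interstitial macrophage-like class includes a cluster led by Ccl17, H2-Ab1 and Mgl2, with 1 of the class's markers among its 10 leading genes. The smooth muscle-like class includes cluster 13, led by Aspn, Col1a1 and Col1a2, with 2 of its class's markers among them. Sums over these classes mix such clusters with the rest. Some other stromal names were close calls by mean marker score (log2). Alveolar myofibroblast-like clusters 2 and 3, with 376 and 290 cells, scored above smooth muscle by 0.01 and 0.16. Pericyte-like cluster 11 scored above smooth muscle by 0.47, and adventitial fibroblast-like cluster 14 above alveolar fibroblast by 0.32.

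The libraries stood apart in several types. All alveolar macrophage-like cells lay in clusters in which 1 library held at most 10% of the cells. The same was true of 83.7% of room air and 89.0% of hyperoxia alveolar fibroblast-like cells, of 80.6% and 74.0% of general capillary (gCap)-like cells, and of 22.5% and 52.0% of aerocyte capillary (aCap)-like cells. For alveolar myofibroblast-like cells the shares were 1.21% and 51.8%, and for alveolar type 2 (AT2)-like cells 11.2% and 20%. No cell of the alveolar type 1 (AT1)-like, adventitial fibroblast-like, artery-like, pericyte-like or smooth muscle-like types lay in such a cluster. In types split in this way, a difference between libraries and a difference between clusters cannot be told apart. The mix of clusters also differed in other types. Pericyte-like cluster 11 held 24 of 129 room air and 101 of 234 hyperoxia cells, and smooth muscle-like cluster 13 held 23 of 54 and 32 of 187. Sums over these types depend on that mix.

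A level below is the sum of a gene's UMIs over the cells of a type, divided by all UMIs of those cells and given on the usual CPM scale. Levels are given as room air, then hyperoxia, followed by the log2 of their ratio, positive where hyperoxia is higher. Orders of levels cover the 17 types alone. Ratios cover genes with a mean level of at least 10 CPM over both libraries, and a gene is counted as past 2-fold when its log2 ratio is at least 1 in either direction. Intervals in brackets are 95% limits from counting error alone. They take UMIs as independent, which they are not where few cells hold most of a gene's UMIs, and the number of cells holding 50% of the UMIs is given for several such values.

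**Figure D1:**
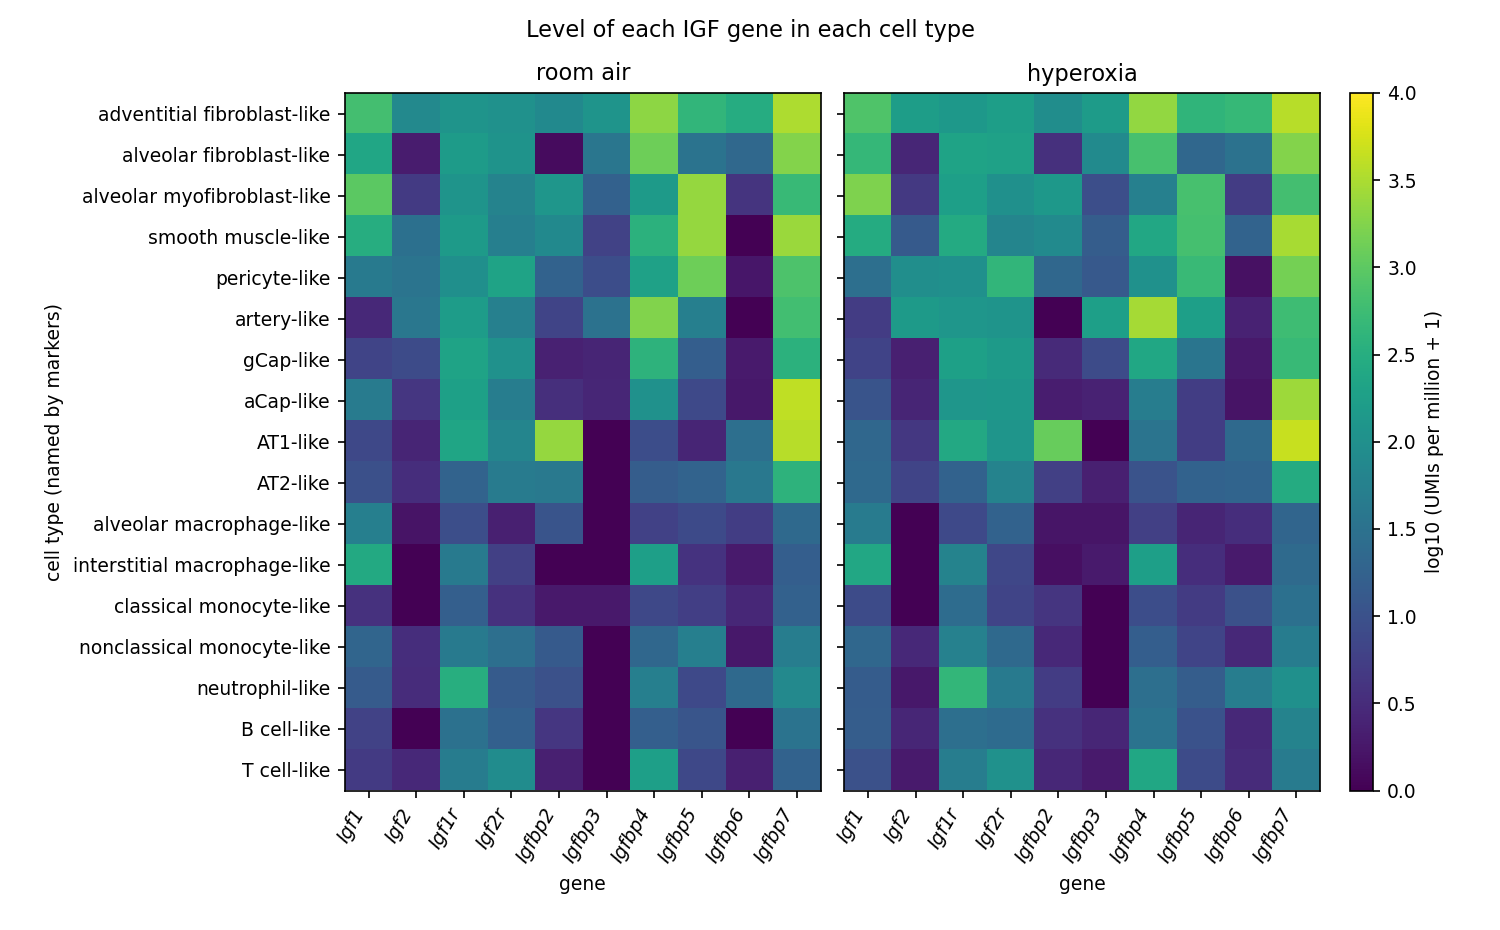
Level of each IGF gene (columns) in each of the 17 cell types (rows) in room air (left) and hyperoxia (right), as log10 of CPM plus 1. Igfbp7 reached 4694 CPM in hyperoxia AT1-like cells, while Igf2 and Igfbp3 were at 0 in several immune types.

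Over the 17 cell types, 103 pairs of a gene and a cell type could be compared. Of these, 18 were past 2-fold higher in hyperoxia and 11 past 2-fold lower, against 6.14% of all gene and type pairs. The median log2 ratio of the 103 pairs was 0.26, while the medians of all genes lay between -0.20 and 0.09 in the single types. The genes were chosen with earlier results of these data known, so these counts describe them and are no test.

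Members past 2-fold were spread over 14 of the 17 types. Artery-like cells had the most, 4 of 7, all higher, where 10.9% of all genes were past 2-fold, and pericyte-like cells had 3 of 8 (6.48% of all genes). The counts were smaller in smooth muscle-like cells (2 of 8, both lower, 10.5% of all genes), in adventitial fibroblast-like cells (1 of 10, 5.73%), in alveolar fibroblast-like cells (1 of 8, 4.40%) and in gCap-like cells (1 of 5, 4.40%). In alveolar myofibroblast-like cells 3 of 8 were past 2-fold, all lower, where 3.26% of all genes were. The aCap-like cells had 3 of 5 (5.25%), AT2-like cells 3 of 8 (3.62%) and AT1-like cells 2 of 7 (8.40%). Among immune cells the counts were 3 of 7 in neutrophil-like cells (12.4%), 1 of 6 in nonclassical monocyte-like cells (8.08%), 1 of 4 in B cell-like cells (2.80%) and 1 of 4 in T cell-like cells (1.63%). No member was past 2-fold in alveolar macrophage-like (0 of 2, 6.65%), interstitial macrophage-like (0 of 4, 4.61%) or classical monocyte-like cells (0 of 2, 5.62%).

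**Figure D2:**
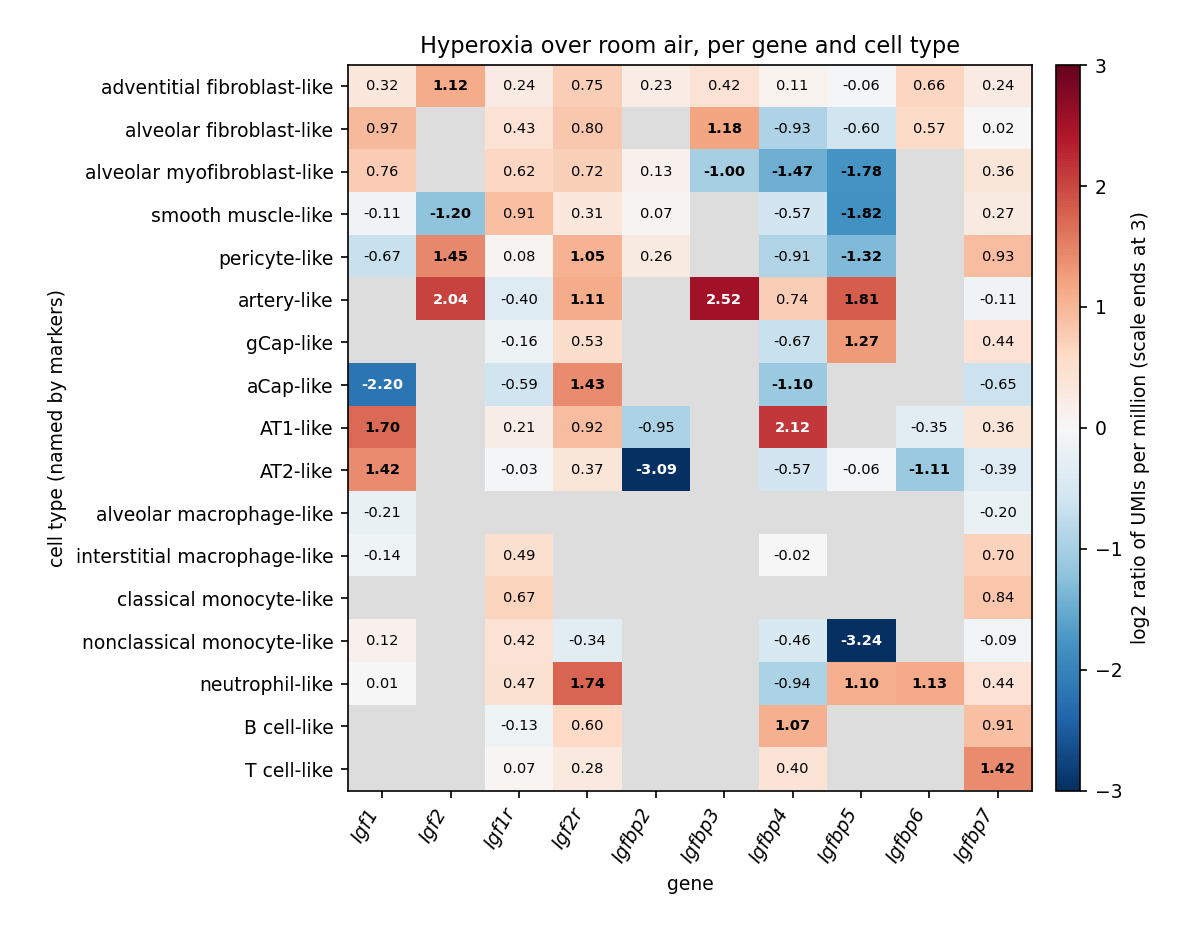
Log2 of the hyperoxia level over the room air level for each gene (columns) and cell type (rows), with values past 2-fold in bold and grey where the mean level was under 10 CPM or fewer than 10 UMIs were counted. Igfbp5 was at -1.78 and -1.82 in alveolar myofibroblast-like and smooth muscle-like cells, and Igf2r was above 0 in each type compared but nonclassical monocyte-like cells.

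Igf1, the ligand that mediates much of growth hormone's action, was a stromal transcript in both libraries, and its level in each fibroblast class, summed, was higher in hyperoxia. Alveolar myofibroblasts are the contractile cells at the tips of growing septa. In alveolar myofibroblast-like cells Igf1 stood at 981 CPM in room air and 1666 in hyperoxia, a log2 ratio of 0.76 [0.72, 0.81]. Alveolar fibroblast-like cells, the lipid-bearing fibroblasts of the alveolar wall, gave 233 and 456, a log2 ratio of 0.97 [0.86, 1.09]. Adventitial fibroblast-like cells, which surround vessels and airways, gave 630.5 and 789, at 0.32 [0.19, 0.45]. Within them cluster 10, with 23 and 137 cells, did not differ beyond counting error (646.5 and 684, 0.08 [-0.11, 0.28]). The unnamed stromal cluster gave 1521 and 1874, at 0.30 [0.22, 0.39].

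With each class summed, Igf1 levels in room air ran from alveolar myofibroblast-like to adventitial fibroblast-like cells. Smooth muscle-like (313), interstitial macrophage-like (272) and alveolar fibroblast-like cells followed, each overlapping the next. The smooth muscle-like level came mostly from cluster 13, led by Aspn, Col1a1 and Col1a2, at 614 and 1210, while cluster 7, led by Acta2 and Myh11, gave 2.56 and 26.5. In hyperoxia the alveolar fibroblast-like cells stood above smooth muscle-like (289) and interstitial macrophage-like cells (248), which again overlapped. Macrophages, known producers of IGF1, showed no difference beyond counting error when each class was summed, in interstitial macrophage-like cells (-0.14 [-0.35, 0.07]) or in alveolar macrophage-like cells (51.6 and 44.6, -0.21 [-0.57, 0.17]). Within the interstitial class, the cluster led by Ccl17 was lower (75.7 and 28.1, -1.43 [-2.17, -0.70]). The other, led by C1qa and C1qb, was not (476 and 445, -0.10 [-0.32, 0.13]). Its level alone stood above that of the smooth muscle-like class in both libraries. Artery-like cells were lowest, at 1.85 and 4.21 CPM from 1 and 6 UMIs. They overlapped classical monocyte-like cells in room air and gCap-like cells in hyperoxia.

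Alveolar myofibroblast-like cells held 54.1% of the room air library's Igf1 UMIs and 43.8% of those in hyperoxia, while the part held by alveolar fibroblast-like cells was 8.47% and 21.4%. Thinned to 2000 UMIs per cell, 67.1% of room air and 86.9% of hyperoxia myofibroblast-like cells had an Igf1 UMI. Here and below, cells with fewer UMIs than that were left out of such shares. In B cell-like cells, which should lack most of these transcripts, the share was 0.802% and 3.12% at the same depth. Before thinning, the median cell had 14344.5 and 12299.5 UMIs in the myofibroblast-like class and 4496 and 2935 in the B cell-like class.

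Within single stromal clusters with at least 20 cells of each library, Igf1 was higher in hyperoxia in 8 of 9, and 5 of the intervals lay wholly above 0. Myofibroblast-like cluster 2 gave 525 and 1035 CPM (log2 ratio 0.98 [0.87, 1.08]) and myofibroblast-like cluster 5 gave 1290 and 1722 (0.42 [0.27, 0.56]). Cluster 3, nearly all from hyperoxia (4 and 286 cells), stood at 2221 in hyperoxia. Over clusters 2 and 5 summed, which held 136 and 192 room air cells against 240 and 26 hyperoxia cells, the log2 ratio was 0.14, so the size of the difference in the whole class depends on how its cells are divided among clusters. The exception among the 9 was pericyte-like cluster 11, at 176 and 40.9; over all pericyte-like cells 50% of the Igf1 UMIs came from 1 and 6 cells. Smooth muscle marker genes moved with the class: 7 of 8 were higher in hyperoxia in alveolar myofibroblast-like cells, their summed level was 3458 and 5566, and Tagln was the most abundant; their part in the result was not tested.

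In endothelium and epithelium the differences in Igf1 were uneven. In aCap-like cells, the endothelium that lies against AT1 cells, Igf1 was lower, at 45.2 and 9.86 (log2 ratio -2.20 [-2.71, -1.67]), with 50% of UMIs from 4 and 26 cells, and it was lower in each of 3 aCap-like clusters, at 21.4 and 6.16, 58.1 and 15.2, and 103 and 32.7, the last with an interval that spans 0. As a mean over cells the aCap-like ratio was -1.51. AT2-like cells, which make surfactant, gave 8.31 and 22.3 (1.42 [0.78, 2.14]). B cell-like cells, whose mean was under 10 CPM, gave 5.08 and 14.2 (1.49 [0.56, 2.56]). Of the 279 hyperoxia UMIs in AT2-like cells, 248 came from 1 cluster of 20 and 207 cells with a median depth of 1384 UMIs, where the level was 115 and 367. Without doublet removal the ratio in AT2-like cells was 0.03, with more doublets removed 0.56, with each library clustered on its own 0.61, in clusters that both libraries fill 0.64, and at the finest clustering 2.53. AT1-like cells had 4 and 24 Igf1 UMIs (6.27 and 20.4 CPM, 1.70 [0.16, 3.69]), 50% of them in 2 and 2 cells, and the sign turned as a mean over cells (-0.05) and without doublet removal (-1.07).

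Igf2, the fetal growth factor expressed from the paternal allele, was the sparser ligand. Among the 17 types its level was highest in adventitial fibroblast-like cells, at 76.0 CPM in room air and 165 in hyperoxia (log2 ratio 1.12 [0.76, 1.49]). Lymphatic endothelium-like cells, too few to compare, had 242 and 125 from 46 and 30 UMIs. It was also higher in hyperoxia in artery-like cells (37.0 and 152, 2.04 [1.37, 2.78]) and in pericyte-like cells (34.0 and 92.7, 1.45 [0.97, 1.96]), and lower in smooth muscle-like cells (29.0 and 12.6, -1.2 [-2.03, -0.35]). The 2 smooth muscle-like clusters went opposite ways, cluster 7 at 56.4 and 10.8 (-2.38 [-3.33, -1.44]) and cluster 13 at 2.49 and 18.9 (2.93 [0.12, 8.37]), the latter from 1 and 10 UMIs. In room air the intervals of artery-like, pericyte-like and smooth muscle-like cells overlapped, and in hyperoxia those of adventitial fibroblast-like and artery-like cells did. No Igf2 UMI was found in classical monocyte-like cells of either library, with 95% upper limits of 3.36 and 2.92 CPM.

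Igf2 was carried by few cells. In adventitial fibroblast-like cells 10 of 52 room air cells (19.2%) and 53 of 237 hyperoxia cells (22.4%) had a UMI, and 50% of the UMIs came from 2 and 3 cells. In artery-like cells 50% came from 1 and 2 cells, with 10 of 61 and 38 of 142 cells positive. Pericyte-like cells had 24 of 129 (18.6%) and 73 of 234 (31.2%) positive, with 50% of UMIs from 6 and 14 cells. At 2000 UMIs per cell, 5.0% of room air and 16.5% of hyperoxia pericyte-like cells had Igf2, against 0 of 374 and 4 of 1218 B cell-like cells. Both larger pericyte-like clusters were higher in hyperoxia: 29.6 and 67.5 in cluster 6, and 49.8 and 118 in cluster 11.

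The adventitial difference lay in 1 cluster. There, in cluster 12, with 17 and 66 cells, Igf2 stood at 99.3 and 421, while cluster 10, with 23 and 137 cells, gave 91.0 and 63.3 (log2 ratio -0.52 [-1.06, 0.04]), and cluster 14 had none. With more doublets removed the ratio in adventitial fibroblast-like cells was 0.37. It was also short of 2-fold as a mean over cells (0.74), with each library clustered on its own (0.85) and under the stricter cell filter (0.92). The artery-like ratio was past 2-fold in 10 of 10 alternatives, and 2.92 at the finest clustering. The smooth muscle-like value was 0.40 under the stricter cell filter and -3.02 with more doublets removed, and it was not past 2-fold in 4 of 10 alternatives.

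Imprinted genes, some of them in other domains than Igf2, were measured beside it. H19, the maternally expressed non-coding RNA next to Igf2 on chromosome 7, was at 30.2 and 183 in adventitial fibroblast-like cells (log2 ratio 2.60 [2.06, 3.19]), with 50% of UMIs from 2 and 3 cells, and at 65.4 and 1.47 in gCap-like cells (-5.47 [-6.44, -4.65]), with 50% from 5 and 3 cells. Meg3 was higher in artery-like cells (3.70 and 102, 4.78 [2.90, 7.84], from 2 and 145 UMIs) and lower in AT2-like cells (485 and 149, -1.70 [-1.81, -1.60]). Of 72 pairs of an imprinted partner and a cell type, 6 were past 2-fold higher and 9 lower (6.14% of all pairs), with a median log2 ratio of -0.01. The antisense transcript Igf2os overlaps Igf2 on the opposite strand and had 2 and 8 UMIs in all cells, too few for a ratio.

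Igf1r, the signalling receptor, was broadly expressed and kept within 2-fold in all 16 types compared, with log2 ratios from -0.59 to 0.91. Its highest level was in neutrophil-like cells, at 325 CPM in room air and 449 in hyperoxia (0.47 [0.20, 0.74]). In smooth muscle-like cells it was higher (149 and 279, 0.91 [0.62, 1.20]), as in alveolar myofibroblast-like (118 and 181, 0.62 [0.47, 0.76]) and alveolar fibroblast-like cells (156 and 209, 0.43 [0.28, 0.57]). It was lower in aCap-like cells (190 and 126, -0.59 [-0.80, -0.38]), artery-like cells (163 and 124, -0.40 [-0.77, -0.01]) and gCap-like cells (211 and 188, -0.16 [-0.28, -0.05]). Both smooth muscle-like clusters had a smaller ratio than their class, 0.57 [0.24, 0.92] in cluster 7 and 0.67 [0.06, 1.30] in cluster 13. The class value therefore also depends on the mix of clusters.

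Igf1r levels were graded from type to type. In room air, AT1-like (224), gCap-like, aCap-like, artery-like and alveolar fibroblast-like cells followed the neutrophil-like cells, each overlapping the next. In hyperoxia, smooth muscle-like and AT1-like (259) cells came next and overlapped. Alveolar macrophage-like cells were lowest in both, at 8.08 and 6.57, and overlapped classical monocyte-like cells in room air. The gCap-like cells held 27.5% of the Igf1r UMIs in room air and 14.4% in hyperoxia, and alveolar fibroblast-like cells 12.0% and 25.0%; these shares also follow the number of cells of each type in a library.

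The neutrophil-like value was less firm by cell counts. At equal depth, 56.8% of neutrophil-like cells had Igf1r in both libraries, where B cell-like cells had 4.55% and 4.43%, and the median neutrophil-like cell had 3188 and 2249 UMIs. Without doublet removal the log2 ratio was 0.15 and at the finest clustering it was 0.84. Scaling by trimmed means (TMM) adds 0.15 to every log2 ratio in these cells. AT2 markers summed to 532 and 1371 CPM in neutrophil-like cells, 5 of 7 higher, Sftpc the most abundant, and their part in the result was not tested.

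Igf2r, the receptor that clears IGF2, was higher in hyperoxia in most cell types. Of 14 types compared, 13 had a log2 ratio above 0 and 12 had an interval wholly above 0, with a median of 0.73; the exception was nonclassical monocyte-like cells, at 28.2 and 22.3 (-0.34 [-1.42, 0.64]). Pericyte-like cells, the contractile cells wrapped around capillaries, had the highest level in both libraries, at 206 and 427 CPM (1.05 [0.85, 1.26]). Past 2-fold were also aCap-like cells (47.7 and 128, 1.43 [1.04, 1.84]), artery-like cells (53.6 and 116, 1.11 [0.54, 1.74]) and neutrophil-like cells (13.3 and 44.2, 1.74 [0.52, 3.25], from 6 and 53 UMIs).

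With cells thinned to 2000 UMIs, 22.5% of room air and 50% of hyperoxia pericyte-like cells had an Igf2r UMI, as did 7.02% and 20.5% of aCap-like cells, against 2.41% and 4.84% of B cell-like cells. All 8 stromal clusters with enough UMIs were higher in hyperoxia, with log2 ratios from 0.30 to 1.25, and 5 of the intervals lay wholly above 0. Pericyte-like cluster 6 gave 221 and 525, and cluster 11 gave 153 and 344. With each library clustered on its own the pericyte-like ratio was 0.98, just short of 2-fold. In artery-like cells the ratio was 0.81 with more doublets removed and 0.99 under the stricter filter, both short of 2-fold, and in neutrophil-like cells, where 50% of UMIs came from 2 and 12 cells, it was 1.02 without doublet removal.

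Below the pericyte-like cells in room air came alveolar fibroblast-like (111), gCap-like (106) and adventitial fibroblast-like cells (104), whose intervals overlapped. In hyperoxia alveolar fibroblast-like (193) and adventitial fibroblast-like cells (175) overlapped, and the latter also overlapped gCap-like cells (153). The lowest levels were 1.24 in room air alveolar macrophage-like cells and 5.55 in hyperoxia classical monocyte-like cells, each overlapping the type above it. Airn, the non-coding RNA that starts within Igf2r and runs on the opposite strand of chromosome 17, stood at 45.6 and 90.8 in pericyte-like cells (0.99 [0.56, 1.44]). It stood at 11.7 and 13 in aCap-like cells (0.15 [-0.66, 1.07]) and at 37.0 and 26.7 in gCap-like cells (-0.47 [-0.76, -0.18]), where the receptor was higher. Whether counting used the strand is not stated in the sources, so reads in the shared stretch may count for either gene.

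**Figure D3:**
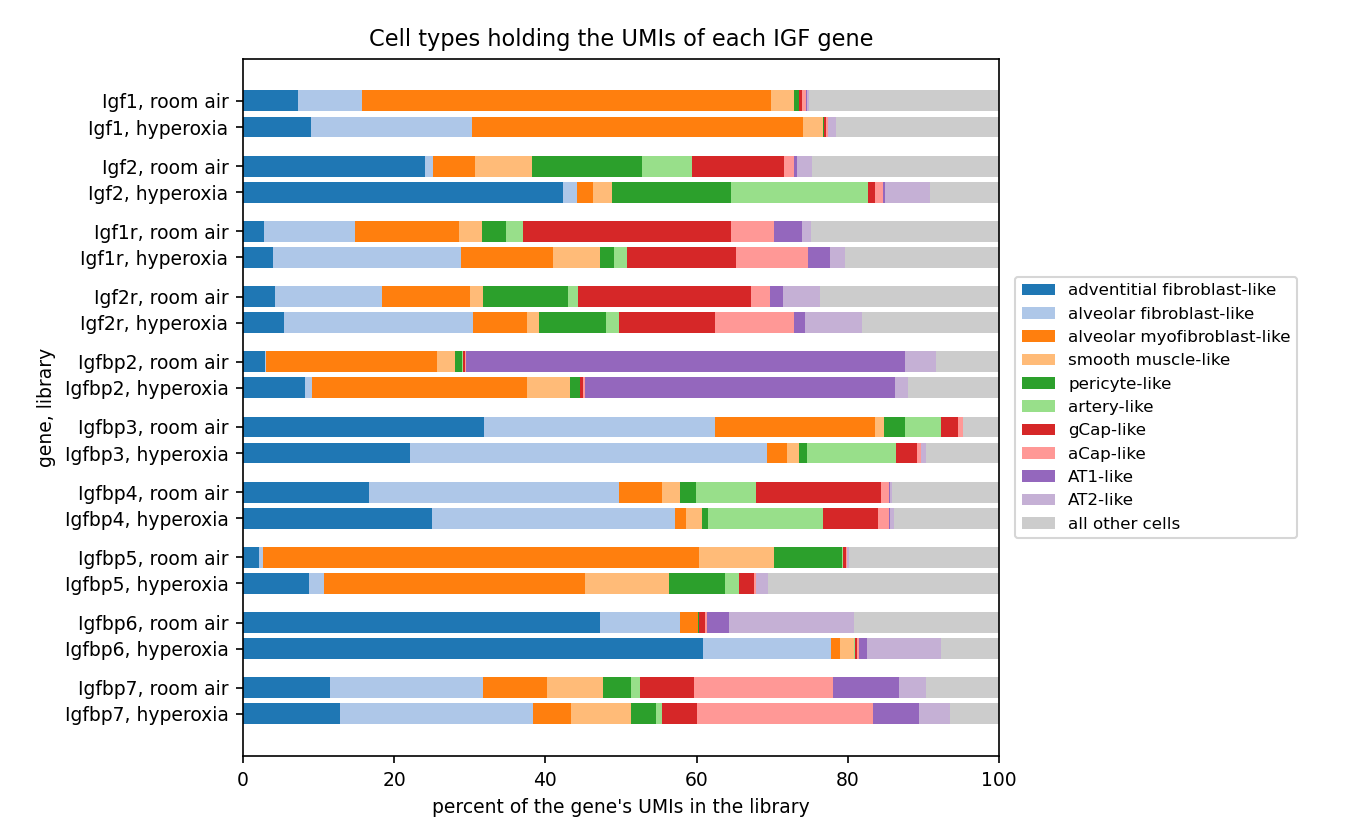
Percent of each gene's UMIs in a library (horizontal axis) that came from each cell type (colours), for room air and hyperoxia. AT1-like cells held 58.1% and 40.9% of Igfbp2, and alveolar myofibroblast-like cells 57.7% and 34.6% of Igfbp5.

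Igfbp2, a binding protein with a preference for IGF2 and a known AT1 cell transcript, was lower in hyperoxia in the alveolar epithelium. AT1-like cells, the flat cells of gas exchange, had 2287 CPM in room air and 1180 in hyperoxia (log2 ratio -0.95 [-1.06, -0.85]). AT2-like cells had 40.8 and 4.80 (-3.09 [-3.57, -2.62]). Alveolar myofibroblast-like cells, next in order, gave 124 and 136 (0.13 [-0.02, 0.28]). Adventitial fibroblast-like (77.0 and 90.5) and smooth muscle-like cells (78.3 and 82.4), each summed as a class, overlapped in both libraries and differed by no more than counting error. Within them, smooth muscle-like cluster 13 was higher (149 and 320, 1.10 [0.67, 1.55]) and adventitial fibroblast-like cluster 10 lower (23.3 and 2.28, -3.35 [-5.48, -1.56]). Myofibroblast-like cluster 2 was also lower, at 72.2 and 48.2 (-0.58 [-0.93, -0.24]). The unnamed stromal cluster was at 41.7 and 140 (1.75 [1.28, 2.26]), with 50% of UMIs from 3 and 9 cells.

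Of the 47 room air and 95 hyperoxia AT1-like cells with at least 2000 UMIs, 80.9% and 60% had Igfbp2 when thinned to that depth, against 0.802% and 0.821% of B cell-like cells. The deeper AT1-like cluster gave 2753 and 1162 (-1.25 [-1.37, -1.12]) and the shallower one, with a median of 1678 UMIs, 1496 and 1244 (-0.27 [-0.49, -0.04]). The AT1-like ratio was past 2-fold as a mean over cells (-1.11) and without doublet removal (-1.17). In AT1-like cells, AT2 markers summed to 44750 and 17610 CPM, all 7 lower and Sftpc the most abundant, while the 8 AT1 markers summed to 29730 and 26610, 6 lower and Ager the most abundant; their part in the result was not tested. In AT2-like cells 50% of the room air Igfbp2 UMIs came from 2 cells and the hyperoxia UMIs from 12. Igfbp2 was lower in AT2-like clusters 1, 2 and 3, at 14.7 and 0.704, 65.5 and 12.6, and 324 and 26.6. The AT2-like ratio kept past 2-fold in 11 of 11 alternatives, with values from -3.37 to -1.51, the latter as a mean over cells.

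Igfbp3, the main carrier of IGFs in serum, was higher in hyperoxia in fibroblasts. Alveolar fibroblast-like cells gave 35.8 and 81.4 CPM (log2 ratio 1.18 [0.90, 1.48]), with a UMI in 23.1% and 34.4% of cells. Adventitial fibroblast-like cells gave 118 and 158 (0.42 [0.12, 0.73]), and this value was -0.14 with more doublets removed. Alveolar myofibroblast-like cells were lower, at 16.4 and 8.18 (-1.0 [-1.52, -0.49]), though -0.22 within clusters that both libraries fill and -0.82 as a mean over cells. Their clusters went opposite ways, cluster 2 at 21.9 and 11.8 (-0.89 [-1.57, -0.21]) and cluster 5 at 12.9 and 45.5 (1.82 [0.69, 2.83]). Artery-like cells gave 31.4 and 181 (2.52 [1.81, 3.32]), but 1 cell in each library held 50% of those UMIs and 4 of 61 and 19 of 142 cells had any. Thinned to 2000 UMIs, 5.08% of room air and 4.38% of hyperoxia artery-like cells had Igfbp3. At the finest clustering the artery-like ratio was 1.79.

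Adventitial fibroblast-like cells led in room air and overlapped artery-like cells in hyperoxia. Alveolar fibroblast-like and artery-like cells overlapped in room air. Neutrophil-like cells had no Igfbp3 UMI in either library, with 95% upper limits of 8.15 and 3.08 CPM. Alveolar fibroblast-like cells held 30.5% and 47.2% of the gene's UMIs.

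Igfbp4, which blocks IGF action until PAPP-A cuts it, was higher in artery-like cells and lower in capillary classes and in most fibroblast and mural classes. Artery-like cells had 1748 and 2911 CPM (log2 ratio 0.74 [0.63, 0.84]). Alveolar fibroblast-like cells had 1312 and 691 (-0.93 [-0.98, -0.87]), and pericyte-like cells 193 and 103 (-0.91 [-1.18, -0.64]). Alveolar myofibroblast-like cells had 150.4 and 54.4 (-1.47 [-1.65, -1.28]), and aCap-like cells 106 and 49.4 (-1.10 [-1.40, -0.81]). The gCap-like cells had 388 and 244 (-0.67 [-0.76, -0.58]). Adventitial fibroblast-like cells, at 2067 and 2229 (0.11 [0.04, 0.18]), were the highest in room air and came after artery-like cells in hyperoxia, with no overlap. Within them cluster 10 was lower, at 3165 and 2778 (-0.19 [-0.27, -0.10]).

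Each of the 9 stromal clusters had a lower Igfbp4 level in hyperoxia, with log2 ratios from -1.62 to -0.10, and 6 intervals lay wholly below 0. At equal depth (2000 UMIs), Igfbp4 was found in 85.8% and 67.5% of alveolar fibroblast-like cells and in 24.8% and 9.84% of alveolar myofibroblast-like cells, against 4.01% and 5.58% of B cell-like cells. In artery-like cells the share was 71.2% and 87.6%. The artery-like ratio was 0.10 at the finest clustering and 0.48 with more doublets removed. There the 7 vein markers summed to 1681 and 2759 CPM, 4 higher and 1 lower, with Vwf the most abundant and 2 at 0 in both libraries, the 8 artery markers to 8844 and 6570, and the 8 adventitial fibroblast markers to 88.7 and 244, 6 higher, Serpinf1 the most abundant; their part in this result, and in the artery-like values of Igf2 and Igfbp3, was not tested. The myofibroblast-like ratio was -0.96 at the finest clustering and -2.12 in clusters that both libraries fill. The aCap-like ratio was not past 2-fold in 5 of 11 alternatives, among them -0.60 as a mean over cells.

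At low levels, Igfbp4 was past 2-fold higher in B cell-like and AT1-like cells. B cell-like cells gave 15.2 and 32.1 (1.07 [0.52, 1.66]) from 33 and 151 UMIs, with a ratio of -0.02 under the stricter cell filter, and past 2-fold in 6 of 11 alternatives. AT1-like cells gave 7.83 and 34.0 (2.12 [0.78, 3.82]) from 5 and 40 UMIs, with 50% of the hyperoxia UMIs in 1 cell, and the ratio was 0.38 without doublet removal, 0.66 as a mean over cells and 0.88 with each library on its own.

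Igfbp5, a binding protein that attaches to extracellular matrix, was lower in hyperoxia in myofibroblast-like and smooth muscle-like cells. Alveolar myofibroblast-like cells had 2370 CPM in room air and 692 in hyperoxia (log2 ratio -1.78 [-1.83, -1.73]). Smooth muscle-like cells had 2360 and 667 (-1.82 [-1.92, -1.73]), and the unnamed stromal cluster 2394 and 735 (-1.70 [-1.79, -1.61]). Over all cells the level was 516 and 161 (-1.68 [-1.71, -1.65]). That value also depends on the mix of cell types, as alveolar myofibroblast-like cells were 9.02% of room air and 5.27% of hyperoxia cells. Adventitial fibroblast-like cells, summed as a class, did not differ beyond counting error, at 424 and 407 (-0.06 [-0.22, 0.11]).

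Alveolar myofibroblast-like and smooth muscle-like cells overlapped at the top in both libraries, above pericyte-like and then adventitial fibroblast-like cells. Thinned to 2000 UMIs, 77.0% of room air and 49.7% of hyperoxia myofibroblast-like cells had Igfbp5, and 63.5% and 42.8% of smooth muscle-like cells did, against 2.14% and 2.13% of B cell-like cells. The difference was present within clusters. Igfbp5 was lower in 7 of 9 stromal clusters, all 7 with intervals wholly below 0: 816 and 317 in myofibroblast-like cluster 2, 3399 and 1035 in cluster 5, 4014 and 744 in smooth muscle-like cluster 7, and 756 and 396 in cluster 13. Alveolar fibroblast-like cluster 9 (37.1 and 122) and adventitial fibroblast-like cluster 10 (357 and 538) were the exceptions. In myofibroblast-like cells the log2 ratio lay between -2.68 and -1.49 over 11 alternatives, all past 2-fold; the value of -2.68 came from clusters that both libraries fill. In smooth muscle-like cells it lay between -2.91 and -1.68 over 10 alternatives, all past 2-fold.

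Markers moved beside this difference. In smooth muscle-like cells, 7 of 8 smooth muscle markers were higher in hyperoxia, summing to 20290 and 34210 CPM, with Acta2 the most abundant, and myofibroblast markers summed to 2303 and 1477, 6 of 8 lower and 1 at 0. In alveolar myofibroblast-like cells their own 8 markers summed to 6546 and 6533, 4 higher and 4 lower, Aspn the most abundant. The part of these markers in the result was not tested.

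Pericyte-like cells gave 1302 and 521 (-1.32 [-1.43, -1.21]), but 21.7% and 20.5% of the cells had any Igfbp5 and 50% of the UMIs came from 4 and 6 cells. Cluster 11, led by Acta2 and Rgs5, held 24 and 101 cells with 5508 and 996 CPM, while cluster 6 had 27.5 and 4.36. The sign turned under 4 alternatives (the stricter cell filter, resolutions 0.5 and 2, and each library on its own), with log2 ratios from 0.40 to 3.31. In pericyte-like cells the 8 smooth muscle markers summed to 3626 and 6763, 7 higher, Tagln the most abundant, and the 8 pericyte markers to 9873 and 7002, 6 lower, Cox4i2 the most abundant. Their part was not tested.

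Endothelial and immune values of Igfbp5 went both ways at low levels. Artery-like cells had 51.7 and 181 (1.81 [1.24, 2.43]), with 50% of UMIs in 1 and 3 cells and 14.8% and 20.4% of cells positive, and a ratio of 0.59 with more doublets removed and 3.22 at the finest clustering. The 7 vein markers summed to 1681 and 2759 in these cells and the 8 adventitial fibroblast markers to 88.7 and 244, and their part in the Igfbp5 value was not tested. The gCap-like cells had 14.5 and 34.9 (1.27 [0.89, 1.66]), where 50% of the hyperoxia UMIs came from 5 cells, the share of positive cells was 7.10% and 6.44%, and the ratio was -0.30 within clusters that both libraries fill and 0.83 as a mean over cells. Nonclassical monocyte-like cells had 52.5 and 5.57 (-3.24 [-5.55, -1.63]) from 67 and 3 UMIs, of which 1 room air cell held 50%, and the ratio was not past 2-fold in 4 of 10 alternatives, -0.64 among them. Neutrophil-like cells had 3 and 17 UMIs (6.62 and 14.2 CPM, 1.10 [-0.69, 3.51]), an interval that includes 0, and the ratio was -3.02 under the stricter cell filter.

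**Figure D4:**
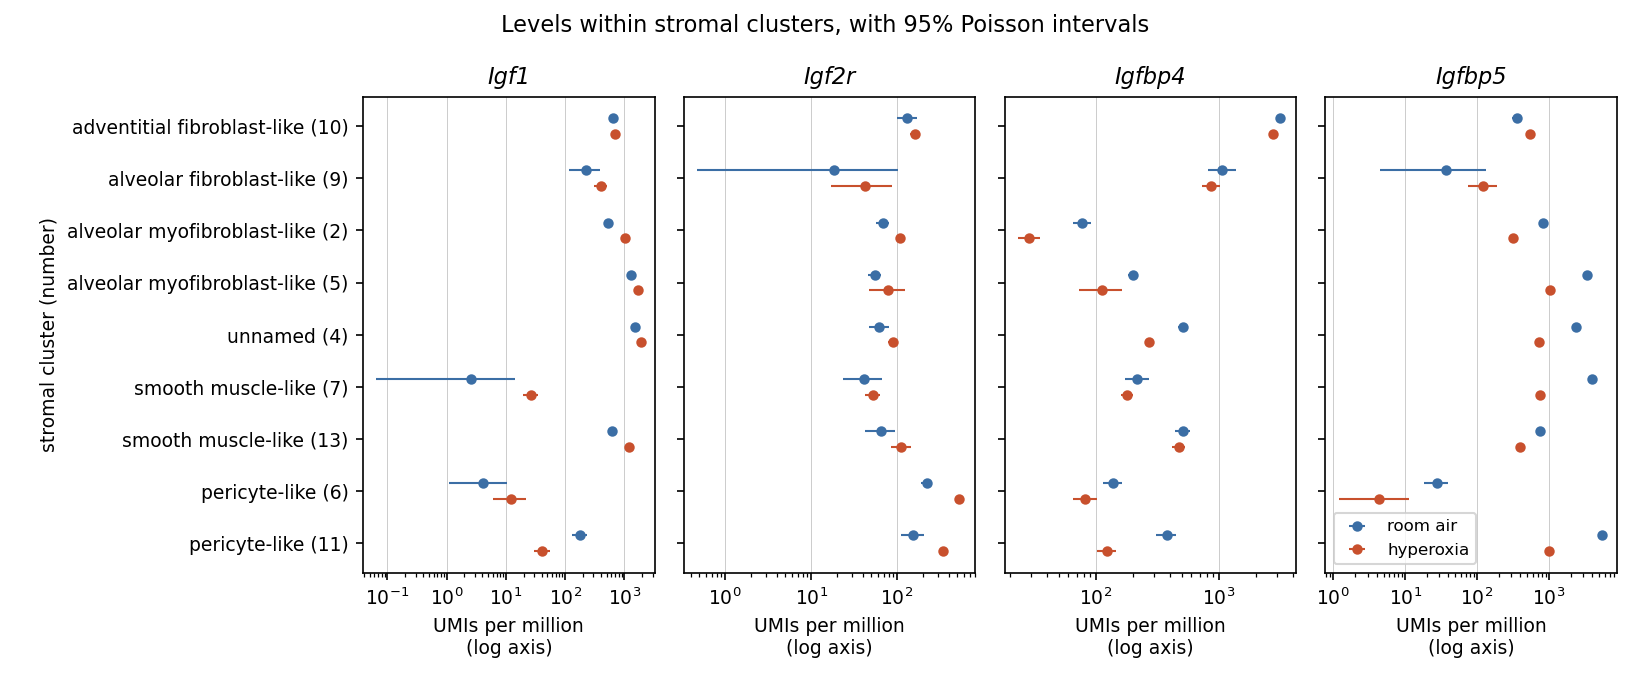
Levels of Igf1, Igf2r, Igfbp4 and Igfbp5 (CPM, log axis) in room air (blue) and hyperoxia (red) within each stromal cluster that had at least 20 cells of each library, with 95% Poisson intervals. Igfbp4 lay lower in hyperoxia in 9 of 9 clusters and Igfbp5 in 7 of 9.

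Igfbp6, which binds IGF2 more tightly than IGF1, was an adventitial fibroblast transcript and stood higher there in hyperoxia, at 298 and 469 CPM (log2 ratio 0.66 [0.47, 0.84]). Adventitial fibroblast-like cells held 47.3% and 60.9% of its UMIs. Cluster 10 gave 196 and 440 and cluster 12 gave 590 and 696. At 2000 UMIs per cell the share of positive cells was 37.3% and 34.9%. With more doublets removed the ratio was 0.14.

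Away from the adventitia, Igfbp6 was lower in AT2-like cells (39.6 and 18.3, -1.11 [-1.46, -0.76]), where 32.6% and 15.7% of cells had a UMI, and this ratio was -0.87 without doublet removal. In neutrophil-like cells it was 22.1 and 48.4 (1.13 [0.15, 2.27]) from 10 and 58 UMIs. In their largest cluster, with 98 and 379 cells, it was 32.5 and 32.7 (0.01 [-1.07, 1.22]), and the ratio for the class was 0.31 within clusters that both libraries fill, 0.61 without doublet removal and 0.96 with more doublets removed. The AT2-like, AT1-like (28.2 and 22.1), alveolar fibroblast-like (21.2 and 31.4) and neutrophil-like cells each overlapped the next in room air.

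Igfbp7, which binds IGFs weakly and lies in vessel basement membranes, was within 2-fold in 16 of 17 types, with a median log2 ratio of 0.36. AT1-like cells had 3669 and 4694 CPM (0.36 [0.29, 0.43]). Endothelium differed by type: aCap-like cells had 4127 and 2629 (-0.65 [-0.70, -0.61]) and gCap-like cells 371 and 503 (0.44 [0.36, 0.52]). Pericyte-like cells had 754 and 1434 (0.93 [0.82, 1.03]), and 37.5% and 74.8% of them had Igfbp7 when thinned to 2000 UMIs. By cluster, Igfbp7 was higher in pericyte-like cluster 6, at 287 and 576, and cluster 11 did not differ (2285 and 2219, -0.04 [-0.17, 0.08]). Cluster 11 held 24 of 129 room air and 101 of 234 hyperoxia cells. The class level and share therefore also depend on the mix of clusters.

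The aCap-like cells led in room air, and in hyperoxia they came after AT1-like, adventitial fibroblast-like (3194 and 3768) and smooth muscle-like cells (2527 and 3048). The smooth muscle-like clusters went opposite ways, cluster 7 (31 and 155 cells) at 4222 and 3567 (-0.24 [-0.32, -0.16]) and cluster 13 (23 and 32 cells) at 883 and 1229 (0.48 [0.29, 0.67]). No neighbours among the top 8 types overlapped in either library. For Igfbp7, T cell-like cells had 17.2 and 45.9 (1.42 [0.84, 2.05]). At equal depth, 1.95% and 8.68% of T cell-like cells had a UMI, while B cell-like cells had 4.81% and 9.11%. The part of ambient RNA in these shares was not tested. In aCap-like cells all 8 aCap markers were lower, summing to 12140 and 7726 with Emp2 the most abundant, and their part in the result was not tested.

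Genes that act on the binding proteins were higher more often than lower. Of 8 proteases and inhibitors listed, 7 could be compared in at least 1 type, and of 42 pairs 10 were past 2-fold higher and 0 lower, against 6.14% of all gene and type pairs, with a median log2 ratio of 0.43. Pappa2, a protease that cuts IGFBP5, was at 201 and 473 in alveolar myofibroblast-like cells (1.24 [1.13, 1.34]), where Igfbp5 itself was lower, and at 192 and 518 in the unnamed stromal cluster (1.43 [1.21, 1.66]). Pappa, the IGFBP4 protease, was higher in adventitial fibroblast-like (17.7 and 44.4, 1.33 [0.60, 2.15]) and smooth muscle-like cells (7.57 and 26.1, 1.78 [0.58, 3.28]).

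Of the stanniocalcins, which inhibit PAPP-A, Stc1 was past 2-fold in 2 of 6 types and Stc2 in 2 of 2, all higher. Stc1 was at 47.2 and 141 in pericyte-like cells (1.58 [1.18, 2.01]) and at 15.2 and 37.9 in smooth muscle-like cells (1.32 [0.45, 2.33]). Stc2 was at 6.31 and 46.3 in smooth muscle-like cells (2.87 [1.61, 4.53]) and at 28.1 and 62.1 in adventitial fibroblast-like cells (1.14 [0.56, 1.78]). In the unnamed cluster Stc1 was lower, at 19.8 and 7.24 (-1.45 [-2.47, -0.44]). Of the rest, Htra1 was higher in artery-like cells (214 and 469, 1.13 [0.84, 1.43]), Adam12 in adventitial fibroblast-like cells (8.32 and 20.3, 1.28 [0.22, 2.56]) and the lysosomal protease Ctsd in interstitial macrophage-like cells (325 and 814, 1.32 [1.16, 1.5]). Mmp7 had no UMI in either library.

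For secreted proteins related to the IGFBPs by structure, of 53 pairs 16 were past 2-fold higher and 3 lower (6.14% of all pairs), with a median of 0.44. Ctgf, a matrix-bound growth regulator, accounted for 9 of the 16. It was at 60.3 and 410 in alveolar fibroblast-like cells (2.77 [2.55, 2.99]), at 485 and 1604 in alveolar myofibroblast-like cells (1.73 [1.66, 1.79]) and at 495 and 1170 in smooth muscle-like cells (1.24 [1.09, 1.40]). Its relative Cyr61 was at 139 and 466 in artery-like cells (1.75 [1.40, 2.11]), but of 14 types tested it had intervals wholly above 0 in 5 and wholly below 0 in 5, such as alveolar fibroblast-like cells (817 and 630, -0.38 [-0.44, -0.31]). Nov was at 63.1 and 279 in smooth muscle-like cells (2.14 [1.73, 2.59]). The 3 lower pairs were Esm1 in artery-like cells (196 and 32.3, -2.60 [-3.13, -2.09]) and Kazald1 in alveolar myofibroblast-like (156 and 69.3, -1.17 [-1.34, -1.0]) and pericyte-like cells (27.1 and 7.93, -1.77 [-2.72, -0.88]).

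Of signalling genes below IGF1R, all 25 listed could be compared, in 371 pairs. Of these 6 were past 2-fold higher and 8 lower, against 6.14% of all pairs, with a median log2 ratio of 0.04. The highest counts were 3 of 19 in classical monocyte-like cells (5.62% of all genes) and 3 of 23 in alveolar fibroblast-like cells (4.40%). In the latter the receptor substrate Irs2 was at 29.8 and 128 (2.1 [1.80, 2.43]), Irs1 at 35.5 and 15.6 (-1.18 [-1.53, -0.83]) and the transcription factor Foxo3 at 53.0 and 115 (1.12 [0.88, 1.36]). AT1-like cells had Foxo3 at 54.8 and 128 (1.23 [0.69, 1.80]) and the adaptor Grb14 at 78.3 and 16.2 (-2.28 [-3.12, -1.49]). In aCap-like cells Foxo1 (46.0 and 22.7, -1.02 [-1.46, -0.56]) and Socs2 (48.6 and 24.2, -1.0 [-1.43, -0.55]) were lower.

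Of 10 other genes of the IGF axis listed, 5 reached the level for a comparison in at least 1 type, and of 46 pairs 1 was past 2-fold higher and 2 lower (6.14% of all pairs), with a median of -0.09. The growth hormone receptor gene Ghr was at 422 and 320 in alveolar myofibroblast-like cells (-0.40 [-0.49, -0.31]), where Igf1 was higher. The insulin receptor gene Insr was at 64.8 and 49.8 there (-0.38 [-0.61, -0.15]). Igfbp1, the remaining classical binding protein gene, had 0 UMIs in room air and 3 in hyperoxia, and Igfals, the subunit that stabilises serum IGFBP3 complexes, had 19 and 72.

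The genes with profiles most like each member were found by Pearson's r of log2 levels over 34 profiles (17 cell types in both libraries), among 7800 genes. These profiles share libraries and depths, and the values describe likeness alone. Igfbp5 was most like Eln, the elastin gene (0.935), Clip3 (0.927) and Pcdh7 (0.921). Igfbp7 was closest to the matrix genes Sparc (0.945) and Serpinh1 (0.943) and to Pls3 (0.940). For Igf2r the nearest was Airn (0.892), then F2r (0.877) and Fermt2 (0.836). Igf1 came nearest to Lpar1 (0.878), Ctsf (0.869) and Gfra2 (0.855), Igf2 to Col8a1 (0.840), Tmem158 (0.837) and Cpe (0.826), and Igf1r to Tprgl (0.830), Zmynd11 (0.820) and Timp2 (0.802). Igfbp2 was near Thbs3 (0.903) and Ddc (0.863), and Igfbp3 near Ltbp4 (0.916), Art4 (0.903) and Sfrp1 (0.896). The nearest to Igfbp4 were Abi3bp (0.86), Fbxl18 (0.858) and Ttc28 (0.819), and to Igfbp6, Rbp4 (0.786), Tspan11 (0.759) and Efemp1 (0.736). Among the members themselves the closest pair was Igfbp3 and Igfbp4 (0.813), and Igfbp2 and Igfbp4 were the least alike (-0.07).

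In GRCm38 (GENCODE M21), several members are neighbours. Igfbp2 (chr1:72824503-72852474, plus strand) and Igfbp5 (chr1:72857932-72874884, minus strand) lie side by side on chromosome 1, tail to tail, and both had their highest level in a cell type in which they were lower in hyperoxia, AT1-like cells for Igfbp2 and myofibroblast-like cells for Igfbp5. Igfbp1 and Igfbp3 are neighbours on chromosome 11. Igf1 is at chr10:87858265-87937042, Igf2 at chr7:142650766-142666816, Igf1r at chr7:67952827-68233668 and Igf2r at chr17:12682406-12769664. Igfbp4 is at chr11:99041244-99054392, Igfbp6 at chr15:102144362-102149511 and Igfbp7 at chr5:77349240-77408041.

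RefSeq promoter windows of 300 bases (250 before the gene's start and 50 after, GRCm38) were found for 10 of 10 members, 14 windows in all. The motif TATAAA, sought on both strands, was in 2 of the 14, those of Igfbp4 and Igfbp6, and in 13.6% of 32851 promoters; CCAAT was in 37.4% and GGGCGG in 35.7% of all promoters. The windows of Igfbp4 and Igfbp5, 2 of the 3 binding proteins past 2-fold lower in alveolar myofibroblast-like cells, are printed 5′ to 3′ with TATAAA in capitals. Igfbp4 is chr11:99040994-99041293 on the plus strand, with 1 match starting at base 223, and Igfbp5 is chr1:72874816-72875115 on the minus strand, with none of the 3 motifs. A match is a description of the letters in the window.
Igfbp4: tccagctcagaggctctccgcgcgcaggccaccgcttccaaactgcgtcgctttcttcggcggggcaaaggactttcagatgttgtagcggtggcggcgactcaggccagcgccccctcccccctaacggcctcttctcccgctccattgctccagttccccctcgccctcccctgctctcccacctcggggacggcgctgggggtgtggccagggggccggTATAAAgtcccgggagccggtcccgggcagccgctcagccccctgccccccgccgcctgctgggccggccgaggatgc
Igfbp5: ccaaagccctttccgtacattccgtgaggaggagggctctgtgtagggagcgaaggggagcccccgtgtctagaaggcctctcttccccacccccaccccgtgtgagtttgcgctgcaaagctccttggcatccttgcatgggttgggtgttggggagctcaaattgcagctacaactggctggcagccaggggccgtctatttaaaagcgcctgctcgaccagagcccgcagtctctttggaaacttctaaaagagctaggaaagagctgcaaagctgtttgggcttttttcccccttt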

How the data were processed

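The authors deposited raw UMI counts per gene and cell barcode for both libraries, made with Cell Ranger from reads on the mm10 genome; the deposited sources disagree on its version (2.1.1 in the labels, 3.1.0 in the matrix header, another in the methods text). Barcodes with under 500 genes (345 in room air, 1026 in hyperoxia) or over 20% mitochondrial UMIs (80 and 486) were left out, as were 129 and 1239 likely doublets found by simulated doublets at 0.8% per 1000 cells. Both libraries were clustered together without integration, first over all cells and then within each lineage, by 2000 variable genes, 30 components, 20 neighbours and Leiden at resolution 1, with the members and listed genes kept out. Clusters were named by a marker rule set after the clusters were seen. Members were taken by gene symbol, and the members and lists were chosen with earlier results of these data known.

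Ratios of summed counts were computed with exact 95% intervals, and thinning drew 2000 UMIs per cell and left out cells with fewer. On simulated counts 95.7% of intervals held a true ratio of 1, as their construction sets, and this says nothing of differences between cells. TMM factors from edgeR 4.0.16 shift every log2 ratio by 0.24 in alveolar macrophage-like, 0.15 in neutrophil-like and -0.11 in B cell-like cells, and by under 0.1 elsewhere. Python 3.11.15, numpy 2.4.6, scipy 1.17.1, pandas 2.3.3, scikit-learn 1.9.0, igraph 0.11.9, leidenalg 0.10.2, matplotlib 3.10.9 and R 4.3.3 were used.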

Additional observations from a re-analysis of the deposited data

Results flagged for a closer look

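For 6 of the 10 genes, log2 ratios passed 2-fold in opposite directions in different cell types, each with a counting interval that excluded 0. By the same rule, this held for 3.78% of the 11200 genes compared in at least 2 types. Genes with many UMIs meet the interval rule more easily than others, so the 2 shares are not on an equal footing. These differences between types were not tested. Igf1 was higher in hyperoxia in AT2-like cells (1.42, but 0.03 without doublet removal) and lower in aCap-like cells (-2.20). In B cell-like cells, below the level for a comparison, its log2 ratio was 1.49. Igf2 was higher in adventitial fibroblast-like cells (1.12, but 0.37 with more doublets removed) and lower in smooth muscle-like cells (-1.2), whose 2 clusters went opposite ways (-2.38 and 2.93). Igfbp3 was higher in artery-like cells (2.52) and lower in alveolar myofibroblast-like cells summed as a class (-1.0), whose clusters 2 and 5 went opposite ways (-0.89 and 1.82). Igfbp4 was higher in B cell-like cells (1.07, but -0.02 under the stricter cell filter) and lower in alveolar myofibroblast-like cells (-1.47). The B cell-like value rests on low levels (15.2 and 32.1 CPM), in the type whose shares are given above for comparison. Igfbp5 was higher in artery-like cells (1.81, but 0.59 with more doublets removed) and lower in alveolar myofibroblast-like cells (-1.78). Igfbp6 was higher in neutrophil-like cells (1.13, but 0.01 in their largest cluster) and lower in AT2-like cells (-1.11).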

How the results depend on the processing

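Each group was 1 library from pooled mice, so differences between mice, litters, dissociations and sequencing runs cannot be told apart from the oxygen exposure. No paired analysis was possible because each group has 1 library. Cell shares depend on dissociation and capture. Names rest on markers, and ambient RNA was not removed. Where values differ between settings, the cause was not tested. Among alternative log2 ratios for the highest-level type of each gene, 73 stayed the same and 28 moved. Among the others, 218 stayed, 43 moved and 10 reversed.

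Those that reversed, and those that moved in the highest-level types, are given by setting; reversed is said only of ratios past 2-fold. Under the stricter cell filter, Igf1 (0.97) and Igfbp5 (-1.49) in alveolar myofibroblast-like cells and Igfbp4 in artery-like cells (0.91) moved, and Igf2 in smooth muscle-like (0.40), Igfbp4 in B cell-like (-0.02), Igfbp5 in neutrophil-like (-3.02) and Igfbp5 in pericyte-like cells (1.09) reversed. At resolution 0.5, Igf1 (0.82) and Igfbp5 (-1.71) in alveolar myofibroblast-like cells moved and Igfbp5 in pericyte-like cells (1.03) reversed. At resolution 2, Igf1 (0.97) and Igfbp5 (-1.52) in alveolar myofibroblast-like, Igf1r in neutrophil-like (0.84) and Igfbp4 in artery-like cells (0.10) moved and Igfbp5 in pericyte-like cells (0.40) reversed. With each library clustered on its own, Igfbp3 (0.09) and Igfbp6 (0.35) in adventitial fibroblast-like, Igfbp4 in artery-like (0.91) and Igfbp5 in alveolar myofibroblast-like cells (-1.70) moved and Igfbp5 in pericyte-like cells (3.31) reversed.

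As a mean over cells, Igf2 (0.74) and Igfbp3 (0.90) in adventitial fibroblast-like, Igfbp2 in AT1-like (-1.11) and Igfbp5 in alveolar myofibroblast-like cells (-1.72) moved and Igf1 in AT1-like cells (-0.05) reversed. Without doublet removal, Igf1r in neutrophil-like (0.15), Igfbp2 (-1.17) and Igfbp7 (0.23) in AT1-like cells moved and Igf1 in AT1-like cells (-1.07) reversed. With doublets removed at double the rate, Igf2 (0.37), Igfbp3 (-0.14, a change of sign) and Igfbp6 (0.14) in adventitial fibroblast-like, Igf2r in pericyte-like (1.26) and Igfbp4 in artery-like cells (0.48) moved. In clusters that both libraries fill, chosen after seeing the data, Igf1 (0.14) and Igfbp5 (-2.68) in alveolar myofibroblast-like cells moved and Igfbp5 in gCap-like cells (-0.30) reversed. Without the top cell of each library, also chosen after seeing the data, Igf2 in adventitial fibroblast-like cells (1.5) moved.

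The percent of all genes past 2-fold, with at least 1 UMI in both libraries, was 12.8 in alveolar myofibroblast-like, 15.8 in adventitial fibroblast-like, 24.8 in neutrophil-like, 15.6 in pericyte-like, 16.0 in AT1-like and 19.9 in artery-like cells. At a mean of at least 50 CPM it was 2.90 in adventitial fibroblast-like, 4.62 in neutrophil-like, 3.71 in pericyte-like, 2.82 in AT1-like and 5.64 in artery-like cells. Shares of UMIs and of positive cells moved in 76 and stayed in 24 alternatives. Removal at double the rate was not run for 4 ratios in AT1-like cells, which had under 20 cells in 1 library, and the shared clusters held no Igfbp3 UMI of 1 library in alveolar fibroblast-like cells.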

Other observations

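Some cell groups were too small for a comparison. Vein-like cells, 34 in room air and 112 in hyperoxia, had Igfbp5 at 545 and 1559 CPM from 199 and 2230 UMIs, with 50% of the room air UMIs in 1 cell and of the hyperoxia UMIs in 17 cells. Their Igfbp7 was at 52.1 and 201 CPM. Lymphatic endothelium-like cells, 14 and 25, had Igfbp7 at 1125 and 4658 CPM, 199 and 0 Igfbp5 UMIs, and 0 and 154 Igfbp3 UMIs, with 50% of the Igfbp5 UMIs in 1 cell and of the Igfbp3 UMIs in 2 cells. Schwann-like cells, 6 and 29, had 2 and 57 Igf1 UMIs. None of these differences was tested.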
